A study of Sus scrofa with 24 samples.

Results

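CCL2, CCL8, CCL11 and CXCL16, 4 chemokine genes of 10912 genes with a symbol on the array, were followed in the oxyntic mucosa, the acid-secreting lining of the stomach, of 24 piglets. They were chosen by their symbols, with their values over the 4 groups of piglets already known from an earlier look at the same arrays. Differences between groups are therefore given for them as a description, with no test. Each gene was read by 1 transcript cluster, the array's unit of several probes spread over a gene.

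The piglets were of a (Great York x Pietrain) x 'Dalland' cross, were delivered by caesarean section, were fed artificially and were sampled at 3 weeks of age. All of them received pasteurized sow colostrum and a simple starter microbiota of Lactobacillus amylovorus, Clostridium glycolicum and Parabacteroides. Complex association (CA) then meant an inoculum of diluted faeces of an adult sow, and simple association (SA) a placebo. The control diet (CON) held soy and palm oil, most of which was replaced in the MCT diet by coconut oil, a source of medium chain triglycerides. Crossing the associations with the diets gave CA CON, CA MCT, SA CON and SA MCT, each of 6 piglets with 1 array each. The labels put the associations in separate rooms, whereas the study's methods describe a few piglets per group in every pen or room. Neither gives a room, litter, sex or pen for a piglet, so the part of housing was not tested.

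Chemokines are small secreted proteins that set up gradients along which white blood cells leave the blood and move through tissue, and each is read by G protein-coupled receptors on the cells it attracts. CCL2 and CCL8, also called monocyte chemoattractant proteins, draw monocytes through CCR2 and, for CCL8, further receptors known from human cells. CCL11, or eotaxin, draws eosinophils through CCR3 and is made by stromal and epithelial cells, including in the healthy gut of the mouse. CXCL16 differs from them, since it is made as a membrane-anchored protein with a mucin-like stalk, is shed by ADAM10, and acts on T and natural killer cells that carry CXCR6 rather than on monocytes or eosinophils.

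In the Sscrofa11.1 annotation of RefSeq all 4 genes lie on chromosome 12. CCL8, CCL11 and CCL2 neighbour each other there in this order with no other listed gene between them, whereas CXCL16 lies elsewhere on the chromosome. All 4 clusters were bright enough to remain when the dimmest 40% of clusters were left out. Averaged over the arrays, CCL8 stood at percentile 52.2 of all 27558 clusters, CCL2 at 84.8, CCL11 at 95.1 and CXCL16 at 95.4. Brightness also depends on the probes, so these percentiles set no gene's level against another's.

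The tissue label was checked against defining genes. The proton pump genes ATP4A and ATP4B stood at percentiles 99.9 and 99.8 and pepsinogen C (PGC) at 99.7, whereas sucrase-isomaltase (SI) of the small intestine stood at 1.85. Of the 6 measured genes of other gut regions, FABP2, CDX1 and CDX2 lay between 12.3 and 22.2, gastrin (GAST) of the antrum at 59.3 and the goblet cell mucin MUC2 at 74.1. The 15 measured macrophage genes ranged from FCGR1A at percentile 6.95 to C1QB at 95.2, with CSF1R, the receptor that defines the lineage, at 75.9, ITGAM at 28.1 and MARCO at 26.6. Of the eosinophil genes, 4 of 10 were measured, and EPX (eosinophil peroxidase), IL5RA and ADGRE1 stood between percentiles 13.2 and 17.8, with PTGDR2 at 58.7. The arrays of pig 4 (CA CON), pig 10 (CA MCT) and pig 22 (SA MCT) stood apart, with a median correlation to the other arrays of 0.946, 0.975 and 0.981 against 0.987 to 0.992 for the other 21. Results that rest on them are given with and without them. The mucosa was measured in bulk, so fewer cells of a type and less RNA per cell cannot be told apart.

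CCL2 was brightest in SA MCT and dimmest in SA CON. As log2 intensity, its lowest, median and highest piglets were 6.98, 7.41 and 8.10 in CA CON and 6.81, 7.42 and 7.78 in CA MCT. They were 6.78, 7.18 and 7.65 in SA CON and 7.01, 7.98 and 8.21 in SA MCT. In SA MCT 4 of 6 piglets lay above every SA CON piglet, and the other 2 lay within the SA CON range. The group means were 7.75 ± 0.48 in SA MCT, 7.47 ± 0.38 in CA CON, 7.40 ± 0.34 in CA MCT and 7.18 ± 0.30 in SA CON (SD, n = 6 each). Neighbours in this order lay within 1 SD of each other.

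The SA piglets on the MCT diet averaged 0.57 ± 0.20 above those on the control diet for CCL2 (log2 difference ± limma standard error), a 1.48-fold difference. In CA piglets the same difference was -0.07 ± 0.20. The association difference, CA minus SA, was 0.29 ± 0.20 on the control diet and -0.35 ± 0.20 on the MCT diet, and over both diets it was -0.03 ± 0.14. With each piglet left out in turn the first ranged from 0.16, without pig 5, to 0.38, and the MCT one from -0.50, without pig 22, to -0.24, without pig 10. The interaction, which is the diet difference in CA minus that in SA, was -0.64 ± 0.29. The same exclusions gave a diet difference in SA of 0.48 to 0.72 and an interaction from -0.79 to -0.51. Pig 22 was the dimmest SA MCT piglet, and without pigs 4, 10 and 22 the diet difference in SA was 0.72 ± 0.18.

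CCL8, the other monocyte chemoattractant, had a different order, with the brightest mean in CA MCT. Its lowest, median and highest piglets were 4.35, 4.81 and 5.13 in CA CON and 4.59, 5.06 and 5.41 in CA MCT. In SA CON they were 4.37, 4.65 and 4.79, and in SA MCT 4.56, 4.89 and 5.22. The SA CON piglets formed the narrowest group, and 4 of 6 CA MCT piglets and 4 of 6 SA MCT piglets lay above all of them. The means were 5.03 ± 0.33 in CA MCT, 4.89 ± 0.25 in SA MCT, 4.79 ± 0.26 in CA CON and 4.63 ± 0.15 in SA CON (SD, n = 6 each), and all 4 ranges overlapped.

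For CCL8 the diet difference had nearly the same size in both associations. It was 0.24 ± 0.14 in CA piglets, 0.26 ± 0.14 in SA piglets (1.20-fold) and 0.25 ± 0.099 over both, and the interaction was -0.02 ± 0.20. The association difference was 0.16 ± 0.14 on the control diet and 0.15 ± 0.14 on the MCT diet, near the size of its error. Over both diets the association difference was 0.15 ± 0.099. With each piglet left out in turn it ranged from 0.09, without pig 5, to 0.25, without pig 4, on the control diet and from 0.07, without pig 7, to 0.23, without pig 10, on the MCT diet. The diet difference ranged likewise from 0.16 to 0.33 in CA and from 0.19 to 0.32 in SA. The interaction of CCL8 over all piglets lay so near 0 that its sign turned when the values were quantile normalized again, to 0.01.

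CCL11 was dimmest in SA CON, and its other 3 groups lay close together. The lowest, median and highest piglets were 8.66, 9.09 and 9.25 in CA CON and 7.85, 8.93 and 9.41 in CA MCT. In SA CON they were 8.21, 8.44 and 9.17, and in SA MCT 8.52, 8.85 and 9.24. The lowest value of all, 7.85, belonged to pig 10, whereas 4 of 6 SA CON piglets lay below every CA CON piglet. The means were 9.05 ± 0.22 in CA CON, 8.91 ± 0.27 in SA MCT, 8.85 ± 0.54 in CA MCT and 8.54 ± 0.38 in SA CON (SD, n = 6 each).

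On the control diet CA piglets averaged 0.51 ± 0.20 above SA piglets for CCL11, 1.42-fold, with a range of 0.44 to 0.63 when each piglet was left out in turn. On the MCT diet the association difference was -0.06 ± 0.20. The diet difference was 0.37 ± 0.20 in SA piglets (1.29-fold) and -0.20 ± 0.20 in CA piglets, and the interaction was -0.57 ± 0.28, from -0.70 without pig 17 to -0.37 without pig 10. The values in the CA MCT group leaned on pig 10. Without pigs 4, 10 and 22 its CCL11 mean was 9.05 ± 0.26 (SD, n = 5), the diet difference in CA was -0.08 ± 0.16 and the association difference on MCT turned to 0.06 ± 0.16. The association difference on the control diet was then 0.59 ± 0.15.

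CXCL16, the membrane-anchored chemokine, spanned the narrowest range of group means. Its lowest, median and highest piglets were 8.65, 8.92 and 9.01 in CA CON and 8.72, 8.93 and 9.53 in CA MCT. In SA CON they were 8.41, 8.81 and 8.98, and in SA MCT 8.76, 8.94 and 9.34. The top piglets were pig 9 in CA MCT and pig 22 in SA MCT, and the medians of these groups and of CA CON were within 0.02 of each other. The means were 9.01 ± 0.21 in SA MCT, 8.98 ± 0.29 in CA MCT, 8.88 ± 0.14 in CA CON and 8.72 ± 0.23 in SA CON (SD, n = 6 each).

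The diet difference of CXCL16 was 0.29 ± 0.13 in SA piglets (1.23-fold) and 0.10 ± 0.13 in CA piglets, where it was -0.01 without pig 9. The association difference was 0.17 ± 0.13 on the control diet and -0.03 ± 0.13 on the MCT diet, and the interaction was -0.20 ± 0.18. With each piglet left out in turn the control diet value ranged from 0.10, without pig 13, to 0.22, and the interaction from -0.31, without pig 9, to -0.13, without pig 13 or pig 22. Without pigs 4, 10 and 22 the diet difference in SA was 0.23 ± 0.13.

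**Figure D1:**
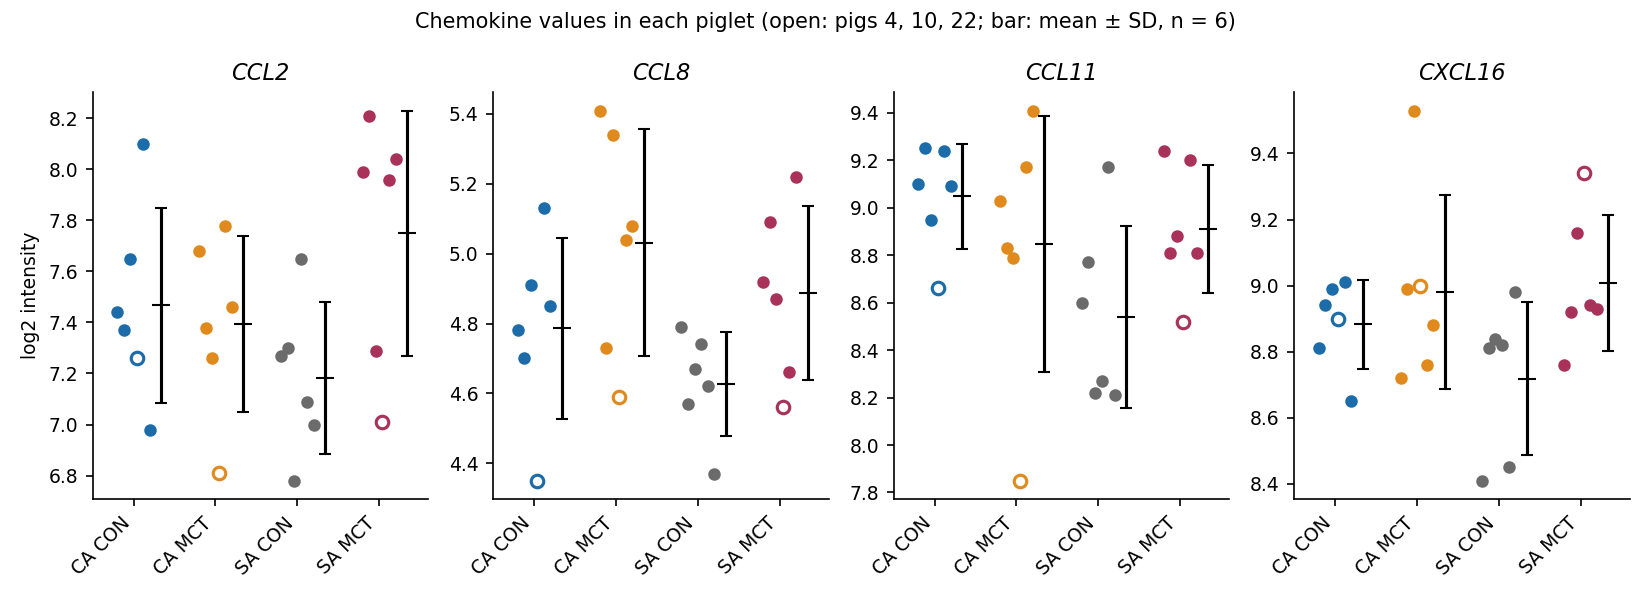
Log2 intensity (vertical axes, which start above 0) of CCL2, CCL8, CCL11 and CXCL16 in each piglet of the 4 groups, with the mean ± SD of 6 piglets as a bar and pigs 4, 10 and 22 as open points. SA CON has the lowest mean in each panel, and no pair of groups is free of overlap.

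All 4 genes had their lowest mean in SA CON. The association difference on the control diet and the diet difference in SA share these 6 piglets, so a low SA CON value enters both and they are not separate observations. The groups overlapped for each gene in every comparison. Adjusted over 10912 genes by Benjamini-Hochberg, limma called 0 of the 4 genes at 0.05 in any of the 7 comparisons, against 0% of all genes. At an unadjusted p under 0.05 it called 1 of 4 for CA against SA on CON, against 4.27% of all genes, and 2 of 4 for MCT against CON in SA, against 2.03%. The counts were 0 of 4 for CA against SA on MCT (2.65%), 0 of 4 for MCT against CON in CA (3.01%) and 1 of 4 for the interaction (2.53%). Over both diets CA against SA gave 0 of 4 (4.13%), and over both associations MCT against CON gave 2 of 4 (2.34%). Because these contrasts chose the genes, nothing is read from the counts.

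**Figure D2:**
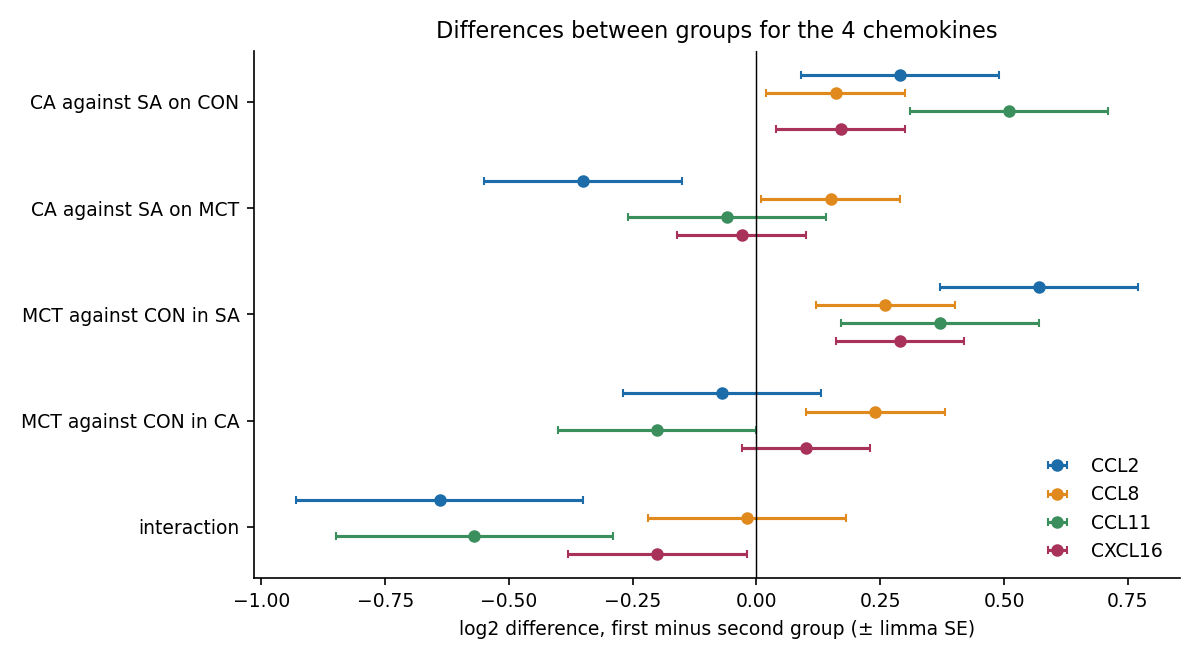
Log2 differences between group means (horizontal axis, first minus second group, with the limma standard error as a bar) for the 4 genes in 4 comparisons and the interaction. CCL2 and CCL11 have the most negative interactions, -0.64 and -0.57, and CCL8 lies at -0.02.

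The 3 arrays that stood apart did not treat the genes alike. They were the lowest of their group for CCL8, by 0.39 to 0.53 below the mean of the other 5 piglets, and for CCL11, by 0.47 in pigs 4 and 22 and 1.19 in pig 10. For CCL2 pigs 10 and 22 were the lowest of their groups. For CXCL16 pigs 4 and 10 lay within 0.03 of the other piglets' mean and pig 22 was 0.39 above it. In the same arrays the mean of 10 oxyntic gland genes was lower than in the other piglets of the group, by 0.40, 0.18 and 0.24. The mean of 6 genes of other gut regions was higher by 0.38, 0.13 and 0.34. Pig 10 lay within the range of the other 5 piglets on both lists. Other lists moved too. For pigs 4, 10 and 22 in turn the macrophage mean differed by -0.26, -0.03 and -0.21 and the endothelium mean by -0.39, 0.09 and -0.30. The neutrophil mean differed by 0.56, 0.14 and -0.07 and the mast cell and basophil mean by -0.40, -0.17 and 0.40. The part of these shifts in the chemokine values was not tested.

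Within groups, where the group means that chose the genes are subtracted, CCL2 and CCL8 varied together. Over 24 piglets Pearson's r was 0.58 (permutation within groups, two-sided, p = 0.00701, adjusted over 6 pairs 0.0421) and Spearman's rho 0.60 (permutation p = 0.00499, adjusted 0.0299). The 4 groups gave r of 0.63, 0.59, 0.40 and 0.66. Leaving out pigs 10 and 22, the piglets farthest from the median of CCL2, gave an r of 0.40. Leaving out pigs 4, 10 and 22 gave an r of 0.37, which no longer passed. The call held in 13 of the 24 fits that left out 1 piglet each, and what it rests on was not tested.

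CCL11 was tied less closely to its neighbours on the chromosome. Its r with CCL2 was 0.47 (permutation p = 0.0212, adjusted 0.0635), with rho of 0.40 (permutation p = 0.0639, adjusted 0.128), and it was 0.19 without pigs 10 and 22. With CCL8 r was 0.41 (permutation p = 0.0768, adjusted 0.118), rho was 0.20 (permutation p = 0.369, adjusted 0.369), and r was 0.05 without pigs 4 and 10 and -0.11 without pigs 4, 10 and 22. CXCL16 ran the other way from CCL11, with r of -0.45 (permutation p = 0.0784, adjusted 0.118) and rho of -0.54 (permutation p = 0.014, adjusted 0.0419), so only the rank measure passed. Without pigs 10 and 17 that r was -0.52, and without pigs 4, 10 and 22 it was -0.55. CXCL16 showed r of -0.31 with CCL2 (permutation p = 0.151, adjusted 0.181; rho -0.32, permutation p = 0.152, adjusted 0.228) and -0.14 with CCL8 (permutation p = 0.572, adjusted 0.572; rho -0.23, permutation p = 0.296, adjusted 0.356). Without the farthest pair of piglets these were -0.18 and -0.16.

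Each chemokine was set beside the mean of marker genes of 12 cell types or tissues within groups, which gave 48 relations. Of these, 4 passed an adjusted p of 0.05 and 11 an unadjusted one. CCL2 and CCL8 went with 15 monocyte and macrophage genes, CCL11 with 10 oxyntic gland genes, and CXCL16 with 9 genes of cytotoxic and natural killer cells, all 4 in the positive direction. They are correlations over bulk samples and name no source of a chemokine.

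With the macrophage mean, CCL2 had an r of 0.62 (permutation p = 0.00313, adjusted 0.0415) and a rho of 0.61 (permutation p = 0.00325, adjusted 0.0544). It was positive in CA CON, SA CON and SA MCT (0.86, 0.77 and 0.82) and -0.26 in CA MCT. CCL8 had an r of 0.59 (permutation p = 0.00346, adjusted 0.0415) and a rho of 0.51 (permutation p = 0.0166, adjusted 0.133), with r between 0.12 and 0.89 in the 4 groups. Without pigs 5 and 20, the farthest on the macrophage mean, r was 0.46 for CCL2 and 0.49 for CCL8. Both calls were narrow and held in 9 of the 24 fits that left out 1 piglet each. Without pigs 4, 10 and 22 the r was 0.57 for CCL2 and 0.46 for CCL8, and neither passed. The macrophage mean itself overlapped between groups, from 5.59 to 5.84 in SA CON and from 5.62 to 5.98 in SA MCT. C1QB, C1QA and C1QC were its brightest genes. CCL2 also had an r of 0.48 with the fibroblast mean (permutation p = 0.00923, adjusted 0.0738), which did not pass. The rho there was 0.55 (permutation p = 0.00579, adjusted 0.0695), and r was 0.54 without pigs 4, 10 and 22.

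CCL11 varied within groups with the oxyntic gland mean, whose brightest genes were the pepsinogen gene PGA5 and the proton pump genes. These varied little, with group SDs of 0.04 to 0.17 for PGA5 and 0.05 to 0.12 for ATP4A. GIF, at 0.23 to 0.71, and HDC, at 0.33 to 0.60, varied more. The list also held GHRL, SST and CHGA, and which of its genes carry the relation was not tested. The r of CCL11 with the list mean was 0.65 (permutation p = 0.00052, adjusted 0.0161) and the rho 0.70 (permutation p = 0.00037, adjusted 0.0178). All 4 groups were positive, at 0.78, 0.59, 0.70 and 0.95 for CA CON, CA MCT, SA CON and SA MCT, and r was 0.69 without pigs 4 and 9. Against genes of other gut regions it was -0.54 (permutation p = 0.00882, adjusted 0.0738; rho -0.51, permutation p = 0.0154, adjusted 0.133), and -0.37 without pigs 4 and 17. Of the genes of other gut regions MUC2 varied most, with group SDs of 0.75 to 1.38 against at most 0.48 for any other. The list mean therefore leans on MUC2, and single genes were not tested. With the 4 measured eosinophil genes, most of them dim, the r of CCL11 was -0.03. The oxyntic gland call held in 22 of the 24 fits that left out 1 piglet, failing without pig 4 and without pig 22, and without pigs 4, 10 and 22 together r was 0.55 and no longer passed.

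CXCL16 went with the cytotoxic and natural killer cell mean at an r of 0.61 (permutation p = 0.00067, adjusted 0.0161) and a rho of 0.59 (permutation p = 0.0034, adjusted 0.0544). The 4 groups gave 0.90, 0.52, 0.75 and 0.67, and r was 0.59 without pigs 22 and 23. The other 3 chemokines gave r between -0.13 and 0.03 with this list. Most of its genes were dim, with GZMA at percentile 33.8 and GZMH at 13.4, and NKG7 at 76.5 was the brightest of the 9. This call also held in 22 of 24 fits, failing without pig 6 and without pig 22. Without pigs 4, 10 and 22 the r was 0.56 and did not pass. CXCL16 also had an r of 0.49 with the T cell mean (permutation p = 0.0446, adjusted 0.199), which did not pass. The rho there was 0.36 (permutation p = 0.112, adjusted 0.446), and the 4 groups gave r from 0.44 to 0.58.

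**Figure D3:**
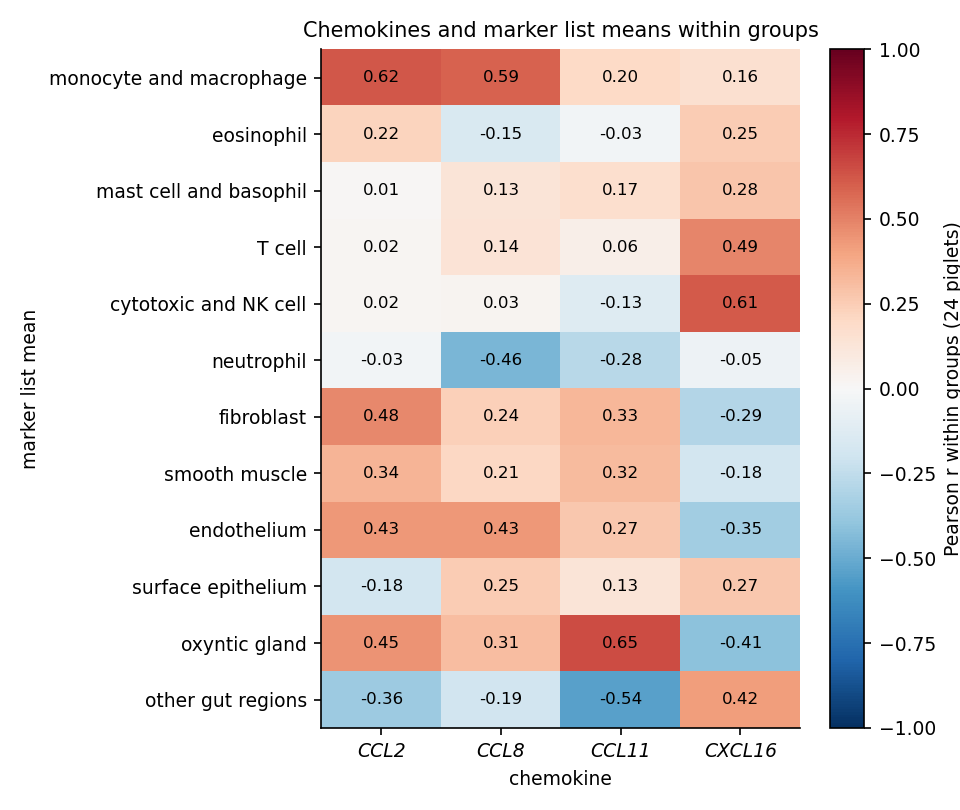
Pearson's r (colour and printed value) between each chemokine (columns) and the mean of each of 12 marker lists (rows) over 24 piglets after subtracting group means. The 4 relations past an adjusted p of 0.05 are those at 0.62, 0.59, 0.65 and 0.61.

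**Figure D4:**
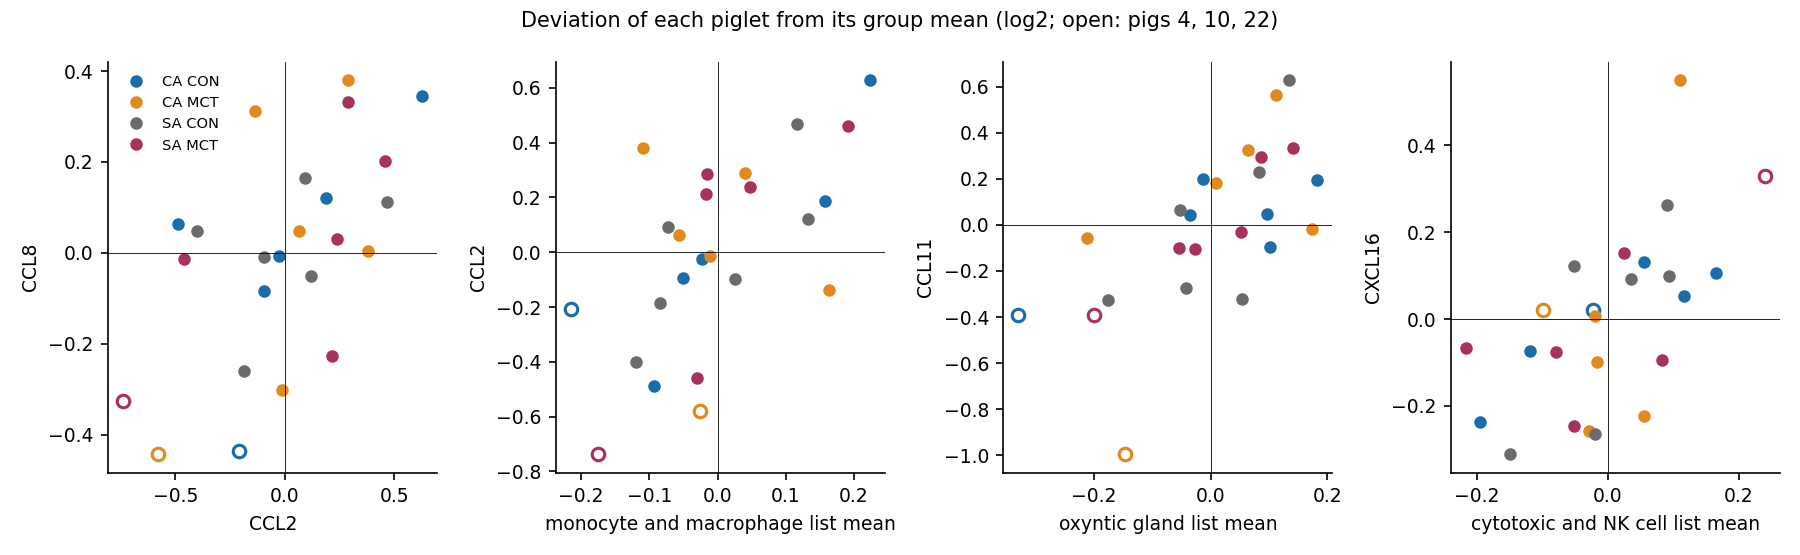
Deviation of each piglet from its group mean on the log2 scale, for CCL2 against CCL8 and for CCL2, CCL11 and CXCL16 (vertical axes) against the marker list mean they went with (horizontal axes), coloured by group, with pigs 4, 10 and 22 as open points. The open points lie below 0 for CCL2, CCL8 and CCL11 and above 0 for CXCL16.

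Single genes that followed a chemokine most closely within groups were looked up among the 5456 brighter genes, over 24 piglets and as a description. For CCL2 they were EPHB3, CYR61, RAMP2, LOC100737531 and PRMT1, with r from 0.76 to 0.84, and from 0.63 to 0.79 without pigs 4, 10 and 22. For CXCL16 they were B3GNT3, PERP, CTSZ, DNAJC13 and GRAMD2B, from 0.73 to 0.78, and from 0.71 to 0.77 without those arrays. The genes most like CCL8 (COBL, DHX34, PLTP, FGFR4 and GPR180) fell from at least 0.74 to at most 0.55. Those most like CCL11 (NUP62, UBL5, RNF214, ING3 and NCOA1) fell from at least 0.73 to at most 0.58.

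Of 5 listed receptors of the 4 chemokines, only CXCR6 was measured. CCR1, CCR2, CCR3 and CCR8 had no cluster assigned to their symbol alone in the annotation used, so they were not analysed here. CXCR6, the receptor of CXCL16, was dim and flat, with means of 3.33 ± 0.17, 3.27 ± 0.12, 3.32 ± 0.10 and 3.32 ± 0.10 in CA CON, CA MCT, SA CON and SA MCT (SD, n = 6 each). Its ranges overlapped in all groups, and no difference of it reached its own standard error in CA against SA on CON, in MCT against CON in SA or in the interaction.

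Among 8 proteases that shed or trim chemokines, 0 passed the adjusted threshold in these comparisons. ADAM10, the sheddase of CXCL16, had means of 9.33 ± 0.14, 9.37 ± 0.20, 9.41 ± 0.14 and 9.34 ± 0.18 in the same order, and ADAM17, another sheddase, was as even. The stromelysin MMP3, which in human proteins trims monocyte chemoattractants, ran from 3.76 to 4.42 in SA CON and from 4.20 to 5.16 in SA MCT. Its diet difference in SA was 0.63 ± 0.22, its association difference on the control diet 0.53 ± 0.22 and its interaction -0.92 ± 0.31, and the groups overlapped. The gelatinase MMP9 gave 0.24 ± 0.20, 0.42 ± 0.20 and -0.59 ± 0.28 in the same comparisons. DPP4, which clips the front end of CCL11, gave 0.14 ± 0.12 for the diet in SA. At an unadjusted p under 0.05 the list held 2 of 8 higher in CA against SA on CON, where 1.93% of all genes were higher, 1 of 8 higher in MCT against CON in SA, where 1.21% were, and 2 of 8 lower in the interaction, where 1.26% were.

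Chemokines of the CC class beside the members were counted next. Of 15 measured, 7 were higher and 8 lower in CA than in SA on the control diet, with a median of -0.01, and 8 were higher and 7 lower with MCT in SA, with a median of 0.00. In these comparisons limma called 0 of the 15 at an unadjusted p, against 4.27% and 2.03% of all genes, and 0 at an adjusted p. Of the other eotaxins, CCL24 averaged 5.49 ± 0.32 in CA CON and 5.65 ± 0.18 in SA CON (SD, n = 6 each), and the diet difference of CCL26 in SA was -0.14 ± 0.081. For CA against SA on CON, CCL19, a lymphoid chemokine, was at -0.40 ± 0.20, and CCL20 and CCL22, which attract dendritic and T cells, were at 0.21 ± 0.17 and 0.21 ± 0.13. CCL5, made by T cells, was at 0.29 ± 0.19 for MCT in SA.

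Another 10 genes, 9 CXC chemokines and XCL1, were measured outside the CC class. All 10 were above 0 for CA against SA on CON (median 0.12, against 0.00 over all genes) and for MCT against CON in SA (median 0.22, against 0.006). All 10 were below 0 in the interaction (median -0.20, against -0.004). Of all genes 49.9%, 52.5% and 49% were above 0 in these comparisons. Some of the 10 lay near 0, such as XCL1 at 0.01 ± 0.14 and PPBP at 0.04 ± 0.099 for CA against SA on CON. These comparisons share the SA CON piglets. In the comparisons without that group, 2 of 10 were above 0 for CA against SA on MCT (median -0.05) and 3 of 10 for MCT against CON in CA (median -0.05). No gene of the 10 passed the adjusted threshold, and the classes were not tested against each other. At an unadjusted p under 0.05, 2 of 10 were higher for CA against SA on CON, where 1.93% of all genes were. For MCT against CON in SA 2 of 10 were higher, where 1.21% were, and 1 was lower in the interaction, where 1.26% were. The T cell attractants CXCL10 and CXCL11 were the largest on the control diet, at 0.77 ± 0.30 and 0.66 ± 0.23, and their interactions were -0.78 ± 0.42 and -0.72 ± 0.32. For MCT in SA, CXCL10 was at 0.72 ± 0.30 and the neutrophil attractants CXCL2 and CXCL8 at 0.25 ± 0.095 and 0.31 ± 0.17.

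**Figure D5:**
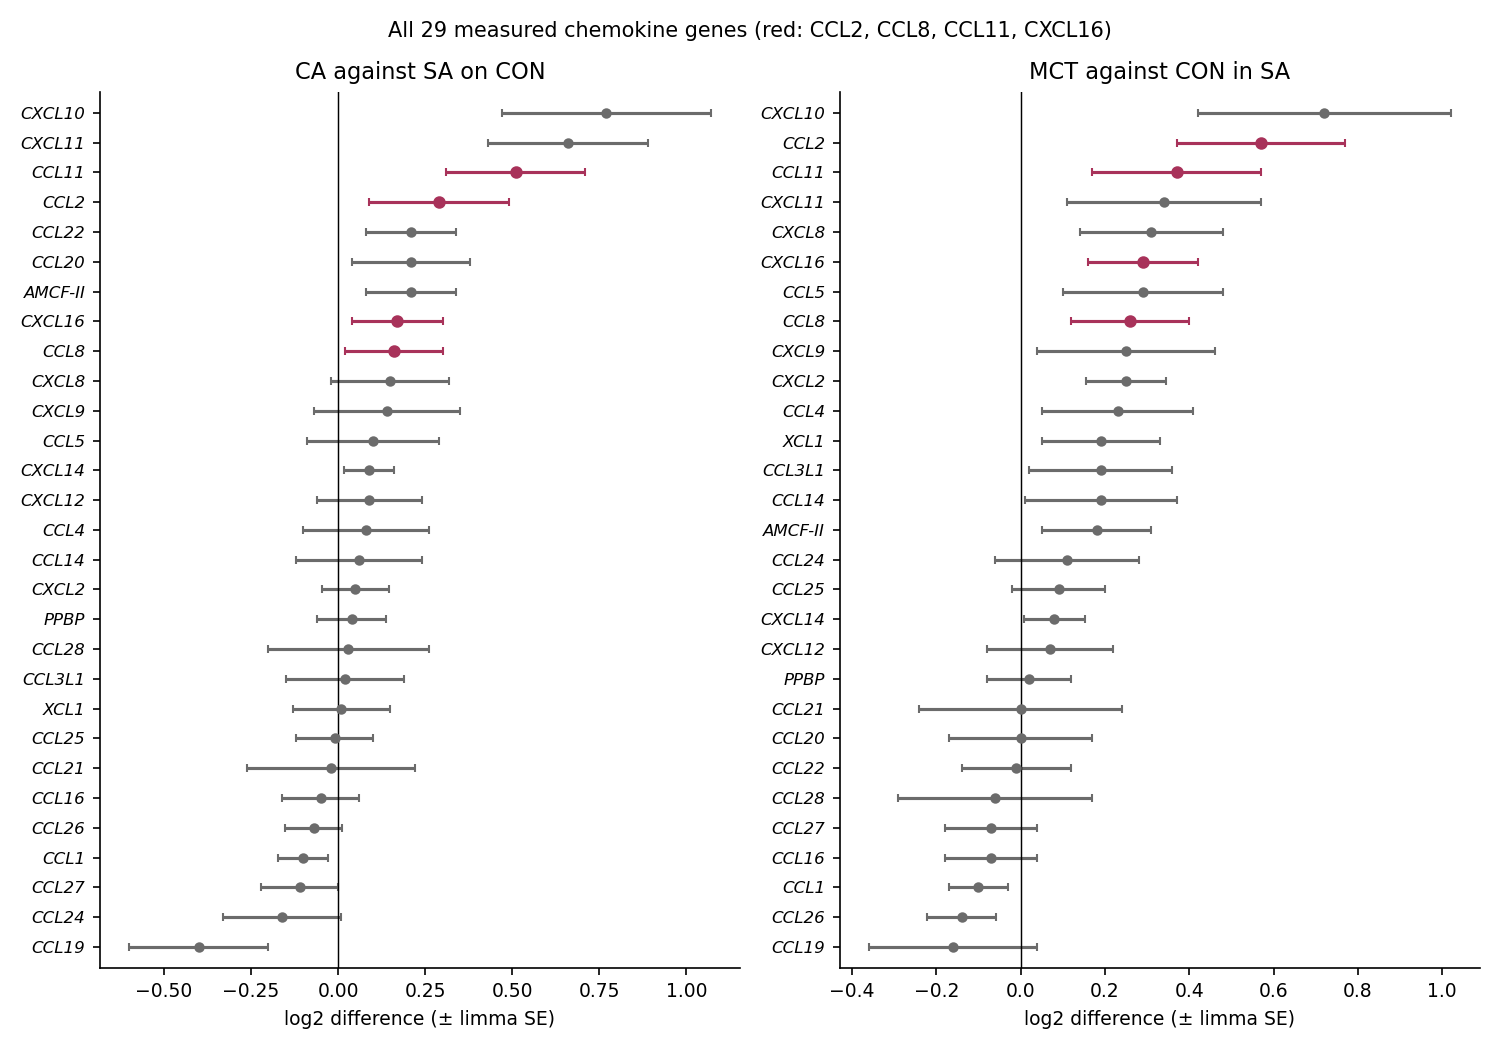
Log2 differences (horizontal axes, with the limma standard error as a bar) of the 4 chemokines (red) and the 25 other measured chemokine genes (grey), in order of their difference, for CA against SA on CON and for MCT against CON in SA. Both panels share the SA CON piglets, and CXCL10 is the highest gene in each, at 0.77 and 0.72.

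Genes that act before or beside these chemokines were counted in the same way. Of 12 type 2 signals, which drive eotaxin in other tissues, 6 were higher and 6 lower in CA than in SA on CON, and IL13, the cytokine best known for inducing CCL11, was at -0.22 ± 0.10. IL33, an alarm signal of epithelium, was at -0.17 ± 0.10. IL5, the growth factor of eosinophils, and TSLP, another epithelial alarm signal, were at 0.21 ± 0.13 and 0.17 ± 0.11. Both were dim, IL5 at percentile 13 and TSLP at 9.34. With each piglet left out in turn IL5 ranged from 0.05 to 0.28. With MCT in SA the IL13 receptor subunit IL4R was at 0.14 ± 0.096 and the transcription factor STAT6 at 0.10 ± 0.083. Of 14 inflammatory and interferon gamma signals, 8 were higher in CA than in SA on CON (median 0.01), where 49.9% of all genes were. With MCT 11 were higher in SA (median 0.09) and 10 in CA (median 0.11), where 52.5% and 50.6% of all genes were. For MCT in SA, IL1A was at 0.49 ± 0.24 and the NF-kB inhibitor NFKBIA at 0.13 ± 0.086. TNF was at 0.17 ± 0.12 for CA against SA on CON. None of these lists held a gene past the adjusted threshold.

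Other receptors, 12 of 17 measured, had medians of 0.03 for CA against SA on CON and 0.04 for MCT in SA. ACKR1, an atypical receptor on venules that binds CCL2 and CCL11 without signalling, was at -0.31 ± 0.21 for CA against SA on CON, and the scavenging receptor ACKR2 at -0.18 ± 0.15. CCR7, which guides dendritic and T cells, was at 0.22 ± 0.16 there and at -0.43 ± 0.23 in the interaction. CCR10, a receptor of CCL27 and CCL28, was at 0.30 ± 0.14 for CA against SA on CON and at -0.40 ± 0.20 in the interaction, and CXCR2, a receptor of neutrophils, was at 0.28 ± 0.18 for CA against SA on CON.

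Of the immune cell lists with MCT in SA, 13 of 15 macrophage genes were above 0 (median 0.07) and 3 of 4 eosinophil genes (median 0.02). So were 11 of 11 T cell genes (median 0.13) and 7 of 9 genes of cytotoxic and natural killer cells (median 0.17). The remaining immune lists had 2 of 5 neutrophil genes above 0 (median 0.00), 0 of 2 B and plasma cell genes (median -0.10) and 2 of 3 mast cell and basophil genes (median 0.09). Of all genes 52.5% were above 0, with a median of 0.006. With MCT in CA, a comparison without the SA CON piglets, 10 of 15 macrophage genes (median 0.03) and 0 of 4 eosinophil genes (median -0.07) were above 0. There 2 of 11 T cell genes (median -0.13) and 3 of 9 cytotoxic and natural killer cell genes (median -0.14) were above 0. No gene of these lists passed the adjusted threshold, and the part of these cells in the chemokine values was not tested.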

How the data were processed

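RNA of oxyntic mucosa from 24 piglets was hybridized by the authors to Affymetrix Porcine Gene 1.1 ST arrays. They normalized the scans by Robust Multichip Analysis in Expression Console and deposited the values as linear intensity, 1 per transcript cluster. Because log2 values had been planned for, log2 was taken with no offset and limma kept. RMA fits probes over all arrays and pulls extremes together, so small differences may be understated. Of 27558 clusters, 11982 had 1 symbol, 373 several and 15203 none in the platform annotation, and the brightest cluster per symbol left 10912 genes. limma 3.58.1 (R 4.3.3) fitted 4 group means, with Benjamini-Hochberg adjustment over all genes. Correlations within groups used 100000 permutations. The scripts were tested on simulated data. The number of arrays limits the precision.

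The genes and lists were chosen with earlier results of these data known. Named were the 4 genes, every measured receptor and protease of theirs, the 3 highest and 3 lowest of each other chemokine, receptor and signal list by limma statistic in 3 comparisons, and the 5 genes most like each member. Of these, examples whose difference exceeded its standard error are printed in part, with CXCR6, ADAM10 and CCL24 given by group means. CCL24 was added after its values were seen. Alternatives were the mean over clusters, a filter on the dimmest 40%, array weights, quantile normalization, an intensity trend, all clusters, fits on 12 arrays, and leaving out piglets.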

Additional observations from a re-analysis of the deposited data

Results flagged for a closer look

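CXCL16 in pig 9 of the CA MCT group stood at a log2 intensity of 9.53, far above the next piglet of its group relative to the group's whole range. The 4 chemokines in 4 groups made 16 such checks, and it was the only one that Dixon's criterion at the 95% level picked out. That criterion picks out about 5% of groups by chance.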

How the results depend on the processing

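Of the 28 differences of the 4 chemokines, none moved by 1 SD or more under the 884 values from other settings. This check could hardly fail, so nothing is read from it. Most of the values left out 1 piglet, which shifts a group mean by well under 1 SD. Each gene has 1 cluster, so the settings on clusters, on the intensity trend and on 12 arrays return the same difference. Array weights, renewed quantile normalization and leaving out pigs 4, 10 and 22 could move a value further. Of the 884 values 22 had the opposite sign, all for differences of 0.10 or less in size. The counts of genes past the adjusted threshold remained 0 except that array weights gave 1 gene in CA against SA over both diets (RNF5) and 1 gene in CA against SA on MCT (PSMA4), and leaving out 1 piglet gave 0 to 1 in the last of these, with PSMA4 passing without pig 22. These genes were named after their values were seen. Past the threshold were 1 of 6 relations between chemokines, 0 after renewed quantile normalization, 0 without pigs 4, 10 and 22 and 0 to 2 with each piglet left out. For marker lists 4 of 48 passed, against 1 after quantile normalization, 0 without pigs 4, 10 and 22 and 0 to 6 with each piglet left out. CCL11 with the oxyntic gland mean was the relation that remained after quantile normalization. The r of CCL8 and CCL11 turned from 0.41 to -0.11 without pigs 4, 10 and 22. Fewer arrays also mean fewer data, and the cause was not tested otherwise. The study's methods state that litters were spread evenly over the groups, but no litter is given for a piglet. No analysis by litter was therefore possible, and the fits and permutations treat the piglets as independent. Each piglet has its own number, and no number is shared between groups.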
